A study of Mus musculus with 6 samples.

Results

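The neurotrophins and their receptors were examined in arcuate hypothalamus lacking Dicer in Pomc-expressing cells. The group comprised 6 genes, Ntrk2 (TrkB), Ntrk3 (TrkC), Bdnf, Ntf3 (neurotrophin-3), Ngfr (p75) and Sort1 (sortilin), and every probe set that the array annotation assigned to one of them alone. This gave 24 of 45037 probe sets, 8 for Ntrk2, 8 for Ntrk3, 2 for Bdnf, 3 for Ngfr and 3 for Sort1. Ntf3 had 0 and was not analysed here. The family was picked because Ntrk2 had stood out in the comparison of the same arrays, so the differences of its members between the groups are given as a description, with no test.

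RNA from microdissected arcuate hypothalamus of mice aged 2 weeks was hybridised to Affymetrix Mouse Genome 430 2.0 arrays. There were 3 control arrays (genotype Ctrl) and 3 POMCDicerKO arrays, from mice with Dicer removed in Pomc-expressing cells, and both groups were on a mixed C57Bl/6J, FVB/N and 129 background. The labels call the samples independent but name neither the Cre line nor the Dicer allele, do not say what alleles the controls carried, and do not say whether a sample held 1 mouse or a pool. Values are log2 expression, which the authors made with RMA, so a difference of 1 is a doubling, and a level can be compared between arrays for 1 probe set but not between probe sets.

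Neurotrophins are secreted growth factors that are made as larger precursors. BDNF acts through the receptor tyrosine kinase TrkB and neurotrophin-3 mainly through TrkC, which pass the signal to the Ras, phosphoinositide 3-kinase and phospholipase C gamma pathways. The p75 receptor binds all neurotrophins and, together with sortilin, their precursors. In the hypothalamus BDNF and TrkB restrain feeding, and reduced function of either causes obesity in mice. TrkB is made both as a full-length kinase, found in neurons, and as truncated forms without the kinase, abundant in astrocytes.

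The start regions of Ntrk2 and Bdnf are shown because these genes encode the receptor TrkB and its ligand. The sequences are from RefSeq (GRCm38.p6), each from 250 bases before to 50 bases after an annotated transcription start. Capitals mark the core of the cyclic AMP response element, TGACG or its reverse complement CGTCA, which the activity-dependent factor CREB can bind. The Ntrk2 window lies at chr13:58806319-58806618 on the plus strand, and the Bdnf window at chr2:109692186-109692485 on the plus strand.
Ntrk2: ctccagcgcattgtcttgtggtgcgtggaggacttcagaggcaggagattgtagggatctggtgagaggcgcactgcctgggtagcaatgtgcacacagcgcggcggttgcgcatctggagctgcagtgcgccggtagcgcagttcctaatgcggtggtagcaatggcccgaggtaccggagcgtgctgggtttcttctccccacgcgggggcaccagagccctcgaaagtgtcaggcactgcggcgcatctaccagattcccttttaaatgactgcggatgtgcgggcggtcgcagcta
Bdnf: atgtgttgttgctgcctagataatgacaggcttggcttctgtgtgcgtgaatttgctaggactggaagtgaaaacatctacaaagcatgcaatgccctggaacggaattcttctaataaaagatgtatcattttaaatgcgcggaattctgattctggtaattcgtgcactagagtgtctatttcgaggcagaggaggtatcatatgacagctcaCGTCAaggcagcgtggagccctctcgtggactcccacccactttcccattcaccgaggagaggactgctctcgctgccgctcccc
Bdnf has several alternative first exons that splice to 1 coding exon, and the table held 7 windows for it, of which 1, the one printed, held this core, starting at base 216. The Ntrk2 window held 0. Of all 32851 windows of 300 bases, 20.8% held it on either strand. A match is a description of the letters, not a binding site. The windows of Ntf3 and Ngfr held 0 matches, and Ntrk3 and Sort1 were not in the table.

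Pearson r across probe sets was 0.995 to 0.997 within groups and 0.994 to 0.997 across them, which is across genes and not across independent replicates. Among all those tested, 0 probe sets (0%) passed limma's Benjamini-Hochberg adjusted threshold of 0.05, while 1098 had an unadjusted p under 0.05, and an ordinary linear model without moderation also called 0. The 2 groups did not overlap at 6.36% of probe sets, with POMCDicerKO lower at 3.22% and higher at 3.14%. Pomc itself (1433800_a_at) read 9.76 to 10.87 in controls and 9.35 to 9.71 in POMCDicerKO. Its other probe set (1455858_x_at) had overlapping groups, at 9.35 to 10.12 and 8.82 to 9.40. Dicer1 (1460571_at) read 9.18 to 9.24 and 9.18 to 9.33. Another Dicer1 probe set (1427941_at) read 7.06 to 7.27 and 7.21 to 7.45, a difference of 0.09, and groups overlapped at each. Pomc and Npy (10.38 to 12.32 over all 6 arrays), which define the main arcuate feeding neurons, were thus well above the lowest values of the scale, near 3.05. Fewer cells of a type and less RNA per cell cannot be told apart in such tissue RNA.

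Ntrk2 was the member that differed most. Of its 8 probe sets, 7 averaged lower in POMCDicerKO and 3 had groups that did not overlap, all 3 lower, against the 3.22% of all probe sets given above. Since Ntrk2 was chosen on this contrast, nothing is read from that count. The median difference over the 8 probe sets was -0.12, while the median of all probe sets was 0.0012. Of the 8, 6 had a mean of at least 6 and the other 2 lay nearer the lower end of the scale.

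The largest difference was at 1435305_at. Its control arrays read 10.25, 10.24 and 10.15 and its POMCDicerKO arrays 9.49, 9.58 and 9.64. All 3 POMCDicerKO arrays thus lay about as far below the controls as each other, and the spread within each group was small beside the gap. The means were 10.21 ± 0.054 and 9.57 ± 0.072 (SD, n = 3 each), which is a difference of -0.64 (standard error 0.069) or 1.56-fold. With any single array left out it ran from -0.68 to -0.60.

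A further probe set, 1446712_at, differed nearly as much but less evenly. It read 7.99, 7.79 and 7.97 in controls and 7.13, 7.31 and 7.66 in POMCDicerKO, with no overlap. The difference was -0.55 with a standard error of 0.13, and POMCDicerKO array 3 lay closest to the controls. Without POMCDicerKO array 1, the lowest, the difference was -0.44.

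The more highly reading probe sets of Ntrk2 gave smaller differences. At 1458622_at the controls read 10.99, 11.20 and 10.95 and the POMCDicerKO arrays 10.89, 10.95 and 10.86. These groups were apart by a margin much smaller than the spread of the controls, with a difference of -0.15 (standard error 0.083). It was -0.074 without control 2, the highest, and -0.055 with control 3 as the only control. At 1420838_at the controls read 10.87, 11.19 and 11.01 and the POMCDicerKO arrays 10.64, 10.93 and 10.78. Here the groups overlapped, since POMCDicerKO array 2 was above control 1, and the difference was -0.24 (standard error 0.11), or -0.16 without control 2.

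Both remaining probe sets with a mean of at least 6 showed little difference. At 1435196_at, the brightest of the 8, the controls read 11.67, 11.95 and 11.79 and the POMCDicerKO arrays 11.58, 11.80 and 11.82. Its difference of -0.071 had a 95% interval from -0.30 to 0.16. At 1437560_at the controls read 9.37, 9.14 and 9.27 and the POMCDicerKO arrays 9.18, 9.22 and 9.26, inside the control range, with a difference of -0.041 (interval -0.22 to 0.13). Both turned sign in single-array omissions, to 0.0066 and 0.011 at most.

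Of the 2 dim probe sets, 1420837_at was the only one of the 8 to average higher. Its controls spread widely, at 5.26, 4.92 and 5.66, around the POMCDicerKO values of 5.47, 5.52 and 5.51. The difference of 0.22 (standard error 0.17) became -0.16 with control 3 as the only control. The other, 1444121_at, read 4.13 to 4.33 in controls and 4.04 to 4.17 in POMCDicerKO, with a difference of -0.097, or -0.041 without control 2 and -0.056 without POMCDicerKO array 2.

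**Figure D1:**
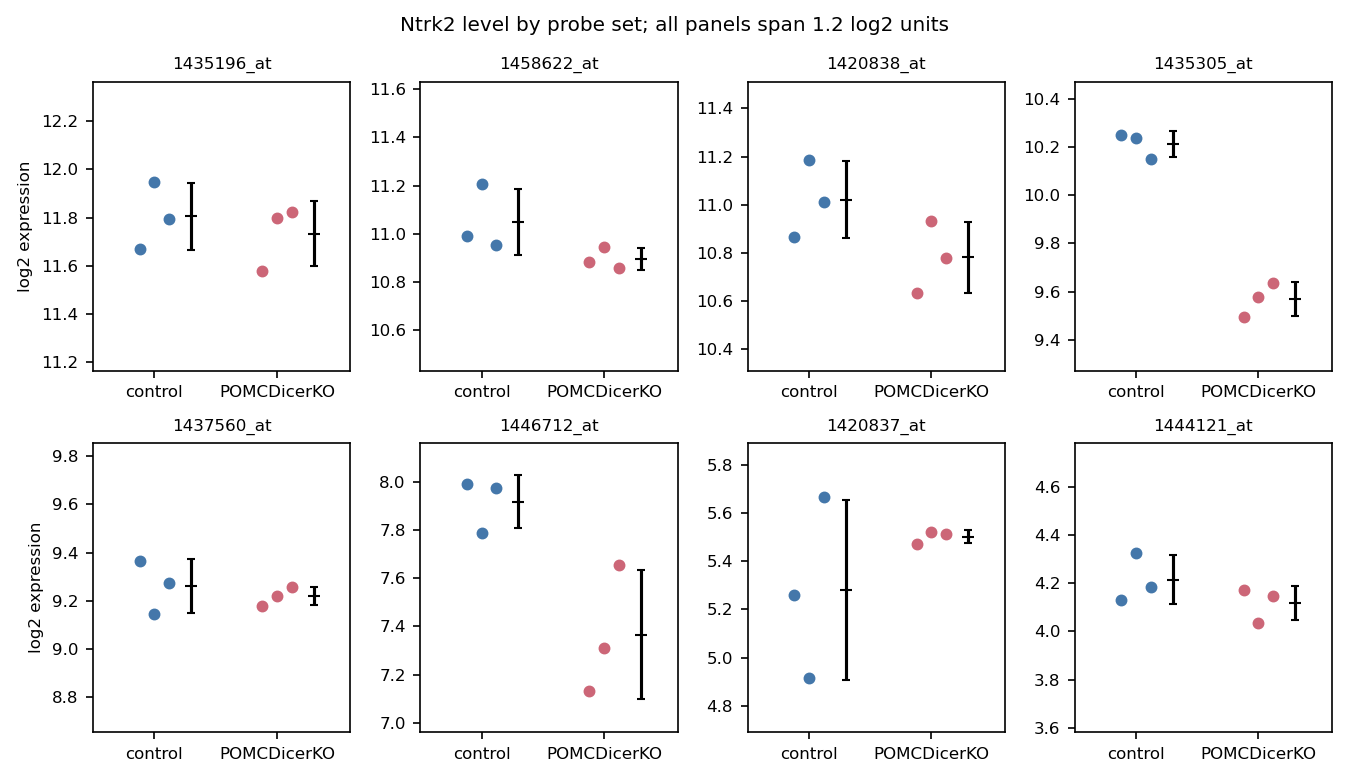
Log2 expression of Ntrk2 (vertical axes) on 3 control and 3 POMCDicerKO arrays, 1 panel per probe set, with bars for mean ± SD and all panels of equal span. The groups are far apart at 1435305_at (10.15 to 10.25 against 9.49 to 9.64) and apart at 1446712_at, but overlap at 1435196_at, 1420838_at, 1437560_at and both dim probe sets.

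The probe sets of Ntrk2 differed from each other in how far they moved on the same arrays. Expressed relative to its own control mean, the span between the highest and the lowest of the 6 brighter probe sets was 0.15 to 0.29 on the control arrays, which are themselves part of that mean and so have narrower spans. On the POMCDicerKO arrays it was 0.71, 0.63 and 0.59. The wider span came from 1435305_at and 1446712_at, 1 or other of which was the lowest on each POMCDicerKO array, and both of which are behind the choice of Ntrk2, so the widening is a description only. Relative to 1435196_at on the same array, 1435305_at stood 0.57 lower in POMCDicerKO than in controls, where this log2 ratio had an SD of 0.15 among controls and 0.071 among POMCDicerKO arrays. The same ratio for 1446712_at stood 0.48 lower (SD 0.25 and 0.17). These are unequal differences between probe sets of 1 gene. The sources used here give no probe sequences and do not say which TrkB isoform each probe set reads. Whether the RNA itself changed unequally was not tested.

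**Figure D2:**
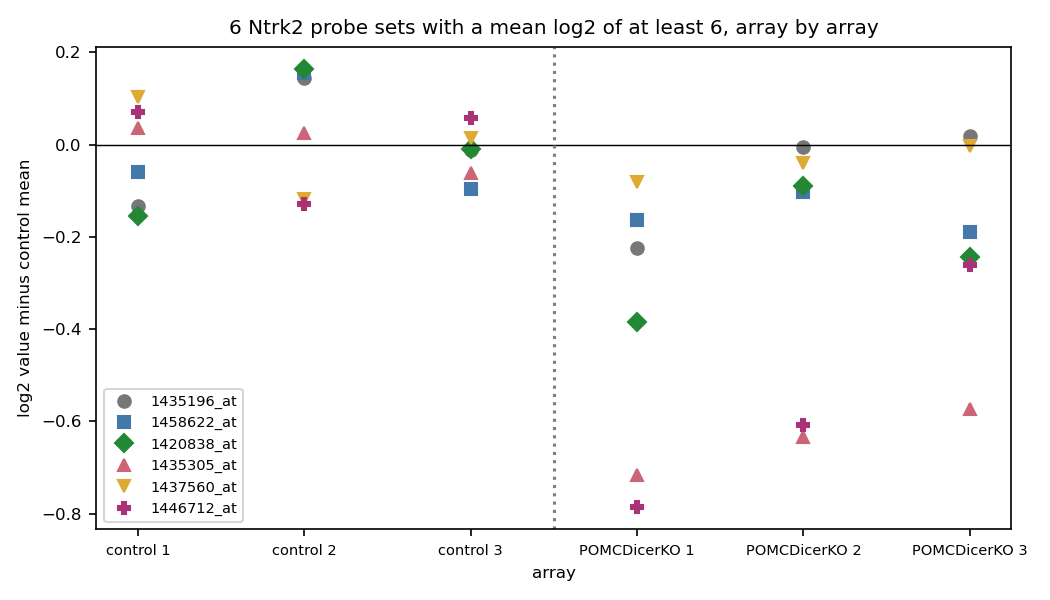
Deviation of each Ntrk2 probe set with a mean log2 of at least 6 from its own control mean (vertical axis, log2), array by array, 1 symbol per probe set. The probe sets span 0.15 to 0.29 on control arrays and 0.59 to 0.71 on POMCDicerKO arrays, where 1435305_at and 1446712_at lie lowest except that 1420838_at lies beside 1446712_at on POMCDicerKO array 3.

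Over the 6 arrays some of the brighter Ntrk2 probe sets varied together. Pearson r was 0.90 between 1435305_at and 1446712_at, 0.85 between 1458622_at and 1420838_at, and 0.83 between 1435196_at and 1420838_at. Between 1435305_at and 1435196_at it was 0.37. Over the same 6 arrays 1437560_at had r of -0.34 with 1435196_at. These values rest on 6 shared arrays, and for the first pair they include the difference between the groups on which Ntrk2 was chosen.

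The genes whose patterns were most like Ntrk2 differed between its probe sets. Among 8911 probe sets of other genes with a mean of at least 6 and a range of at least 0.3, those nearest to 1435305_at over the 6 arrays were Rps9 (r = 0.96), Nhlrc1 (0.96), Erdr1 (0.95), Gas1 (0.95) and Slc6a3 (0.95). The probe sets of Rps9 and Erdr1 were 1434624_x_at and 1452406_x_at, whose suffix marks probes that can match other transcripts. Rps9 encodes a ribosomal protein, Nhlrc1 a ubiquitin ligase, Gas1 a membrane protein that binds hedgehog ligands, and Slc6a3 the dopamine transporter. Because 1435305_at is the Ntrk2 probe set with the most separate groups, these r values largely restate the group difference on which Ntrk2 was chosen, and the separate groups of all 5 genes follow from it. Taken as deviations from the group means, r with 1435305_at was -0.52 for Rps9, -0.93 for Nhlrc1 and -0.65 for Erdr1, so these ran opposite to it within groups, against 0.93 for Gas1 and 0.78 for Slc6a3. Nhlrc1, Gas1 and Slc6a3 lie on chromosome 13, as Ntrk2 does. The share of chromosome 13 among the 8911 was not counted, so nothing is read from this. Only 0.18% of the 8911 reached r = 0.9 with 1435305_at, against 1.85% with 1435196_at. Nearest to 1435196_at were Clba1, Nin, Rax, Nek5 and Eno4, with r between 0.995 and 0.997, and between 0.994 and 0.997 for deviations from group means. Each of these had overlapping groups. Rax is a transcription factor of tanycytes, the glia that line the floor of the third ventricle, and Nin encodes the centrosomal protein ninein. With 6 arrays and so many candidates high values arise readily, so these are a description only.

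TrkC, the receptor of neurotrophin-3, showed no difference of the size seen at 1435305_at in its brighter probe sets. Its brightest, 1433825_at, read 9.78, 9.62 and 9.78 in controls and 9.85, 9.73 and 9.78 in POMCDicerKO. The groups overlapped, with a difference of 0.058 and a 95% interval from -0.11 to 0.23. At 1455917_at the range was 8.32 to 8.61 in controls and 8.45 to 8.60 in POMCDicerKO, at 1422329_a_at 7.30 to 7.47 and 7.42 to 7.52, and neither difference (0.026 and 0.075) exceeded 0.1. The probe set 1425071_s_at, whose suffix marks probes that can match more than 1 gene, read 7.03, 7.18 and 7.12 against 6.99, 7.03 and 6.95. Its groups did not overlap but all but touched, at 7.028 for control 1 and 7.026 for POMCDicerKO array 2. The difference of its group means was -0.12 (standard error 0.068), opposite in sign to the other 3 brighter probe sets of Ntrk3. Of those 3, 1455917_at and 1422329_a_at were also of either sign when arrays were left out.

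The dimmer Ntrk3 probe sets varied more. At 1447723_at the controls read 6.04, 5.31 and 5.64 and the POMCDicerKO arrays 5.89, 6.03 and 6.17, so control 1 lay among the POMCDicerKO arrays despite a mean difference of 0.37 (standard error 0.17). It was 0.55 without control 1 and 0.19 without control 2. At 1426003_at the controls read 4.48, 4.50 and 4.53 and the POMCDicerKO arrays 4.63, 4.63 and 4.997. These groups did not overlap, but array 3 stood apart from the other two POMCDicerKO arrays, and without it the difference of 0.25 was 0.13. The other 2 dim probe sets overlapped, with differences of -0.056 and 0.096, and single-array omissions gave -0.12 to 0.011 and 0.047 to 0.16.

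Bdnf, the ligand of TrkB, had overlapping groups at both probe sets. At 1422168_a_at the controls read 9.01, 9.04 and 8.75 and the POMCDicerKO arrays 9.06, 8.95 and 8.72. Each group thus held 2 arrays near 9 and 1, number 3, 0.2 to 0.3 lower, and the group means differed by -0.024 (interval -0.29 to 0.24). That difference ran from -0.12 to 0.07 with single arrays left out. At 1422169_a_at the values were 7.24, 7.31 and 7.11 in controls and 7.22, 7.37 and 7.28 in POMCDicerKO, a difference of 0.067 (interval -0.11 to 0.25). With control 3 as the only control, both Bdnf differences were positive, at 0.16 and 0.18. The neighbouring ventromedial nucleus is rich in Bdnf, and its 9 measured marker genes averaged 9.0 to 9.06 in controls and 9.02 to 9.03 in POMCDicerKO.

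The p75 receptor gene Ngfr was dim on every array. Its 3 probe sets all had means under 6, and the brightest, 1454903_at, read 5.95, 5.91 and 5.63 in controls and 5.64, 5.74 and 5.81 in POMCDicerKO. The groups overlapped, with a difference of -0.10 that was 0.099 with control 3 as the only control. At 1450177_at the groups did not overlap (4.18, 4.13 and 4.10 against 4.21, 4.21 and 4.25), but the difference was only 0.085 and the level was near the lower end of the scale. At 1421241_at the difference was 0.067 and the groups overlapped. So little signal over background limits what these probe sets can show.

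Sortilin, the partner of p75 in binding precursor neurotrophins, showed little difference. At its brightest probe set, 1423362_at, the controls read 9.51, 9.49 and 9.32 and the POMCDicerKO arrays 9.59, 9.36 and 9.39. The difference was 0.0051 with an interval from -0.20 to 0.21. The other 2 Sort1 probe sets, near 6, gave -0.073 and -0.0038, and all 3 had overlapping groups and differences of either sign when arrays were left out.

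Across the 24 probe sets 0 passed the adjusted threshold (background 0%), 13 averaged lower and 11 higher, and the median difference was -0.014. Groups did not overlap at 6, 4 lower and 2 higher, of which 3 belonged to Ntrk2, 2 to Ntrk3 and 1 to Ngfr, beside 6.36% of all probe sets, 3.22% lower and 3.14% higher. Nothing is read from this count, which rests on the contrast used to pick the family. Only 14 of the 24 had a mean of at least 6. Among the 22713 probe sets of the table at that level, the median absolute difference was 0.054 and the 99th percentile 0.38. That Ntrk2 1435305_at and 1446712_at lie beyond it is how the family came to be chosen, and nothing is read from it.

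**Figure D3:**
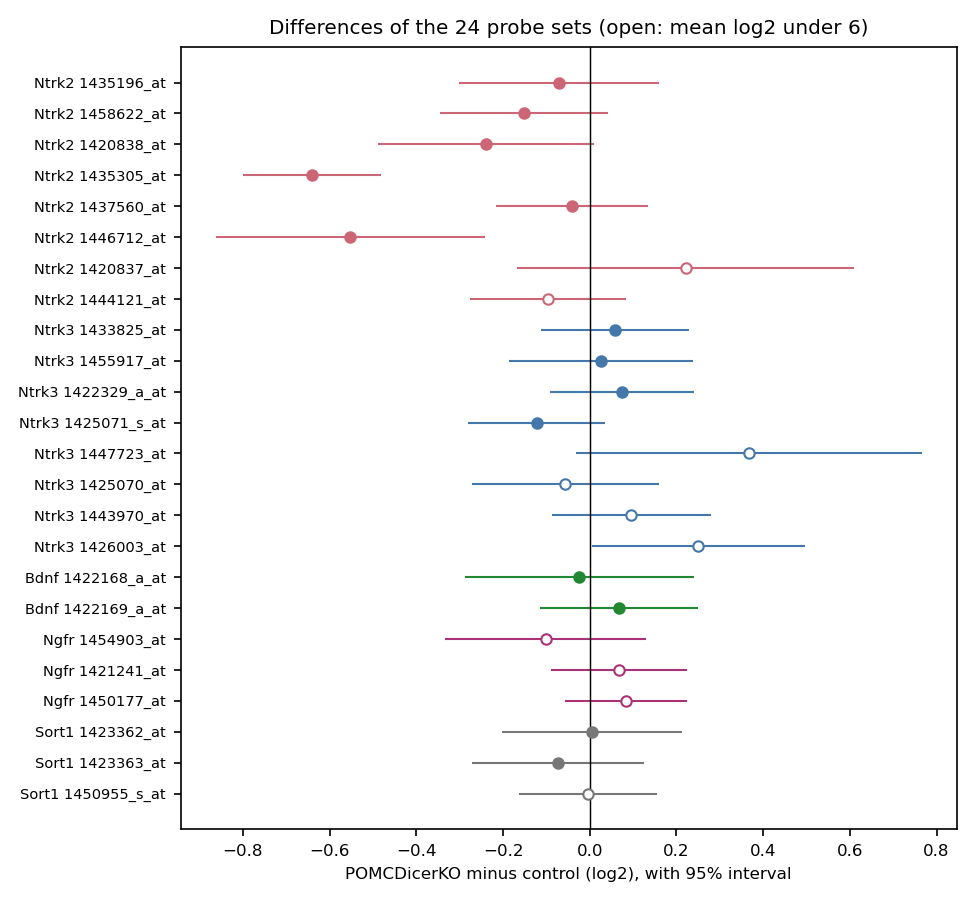
Difference between POMCDicerKO and control on the log2 scale (horizontal axis) for each of the 24 probe sets, with 95% intervals; open symbols have a mean log2 under 6. Ntrk2 1435305_at (-0.64) and 1446712_at (-0.55) lie apart from the brighter probe sets of Ntrk3, Bdnf and Sort1, whose differences are all within 0.13 of 0.

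The rest of the pathway was read from 7 gene lists, each gene represented by its brightest probe set. Of 105 measured genes, 0 passed the adjusted threshold in limma (background 0%), and 1 had an unadjusted p under 0.05. Over all 274 probe sets of these genes 0 passed and 8 had an unadjusted p under 0.05, beside 1098 of all 45037 probe sets. The share of all genes with such a p was not counted, and nothing is read from these counts. The median difference was -0.02, with 42 genes higher and 63 lower, beside a median of -0.0099 over all 18193 genes. Groups did not overlap at 5.71% of the 105 genes, against 6.44% of all genes.

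Among ligands and receptors outside the family, Ntf5 (neurotrophin-4/5), the other ligand of TrkB, was near the lower end of the scale at 4.08 to 4.18. Of 11 measured receptors and co-receptors 0 passed and 0 had groups apart, with a median of -0.022. Tnfrsf19, a relative of p75, was at -0.19 (standard error 0.13), the receptor phosphatase Ptprs at -0.096 and the sortilin relative Sorcs3 at -0.053. The 13 measured genes of proneurotrophin processing, 5 higher and 8 lower, also had 0 called, with a median of -0.031. The prohormone convertase Pcsk1 was at -0.18 (standard error 0.16), the plasminogen activator Plat at 0.12 and the matrix protease Mmp2 at -0.098.

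Downstream of the Trk receptors, 31 adaptors and kinases had a median of -0.0099, with 14 higher, 17 lower and 0 called. Gab1, a docking protein that links receptor tyrosine kinases to phosphoinositide 3-kinase, read 9.59, 9.50 and 9.49 in controls and 9.81, 9.73 and 9.70 in POMCDicerKO. Its groups were apart, with a difference of 0.22 and a standard error of 0.066 (limma adjusted p = 1), and it was the gene with an unadjusted p under 0.05. The adaptor Grb2 and the calcium-dependent kinase Camk2a also had separate groups, at -0.11 and -0.14, beside 6.44% of all genes with separate groups. Of 16 partners of p75, 4 were higher, 12 lower and 0 called. Psen2, of the gamma-secretase that cleaves p75, was at -0.10, the kinase Mapk9 at -0.093 and Zfp369 at 0.14. Psen2 and Zfp369 had separate groups as well.

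Genes that regulate Bdnf or respond to it gave 0 calls as well. The 14 regulators had a median of -0.017, with Creb1 at 0.17, its coactivator Crtc1 at -0.12 and the activity-induced factor Npas4 at -0.32. Npas4 read 7.75, 7.18 and 7.32 in controls and 7.20, 6.99 and 7.10 in POMCDicerKO, and its groups overlapped at control 2. The 22 responsive transcripts split evenly, 11 higher and 11 lower, with a median of 0.0057 and a range from -0.64 to 0.49. Spry2, a feedback inhibitor of receptor tyrosine kinases, was at -0.17. The lowest was Npy, at -0.64 with a standard error of 0.38, where POMCDicerKO array 1 alone read 10.38 and the other two read 11.79 and 11.86.

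**Figure D4:**
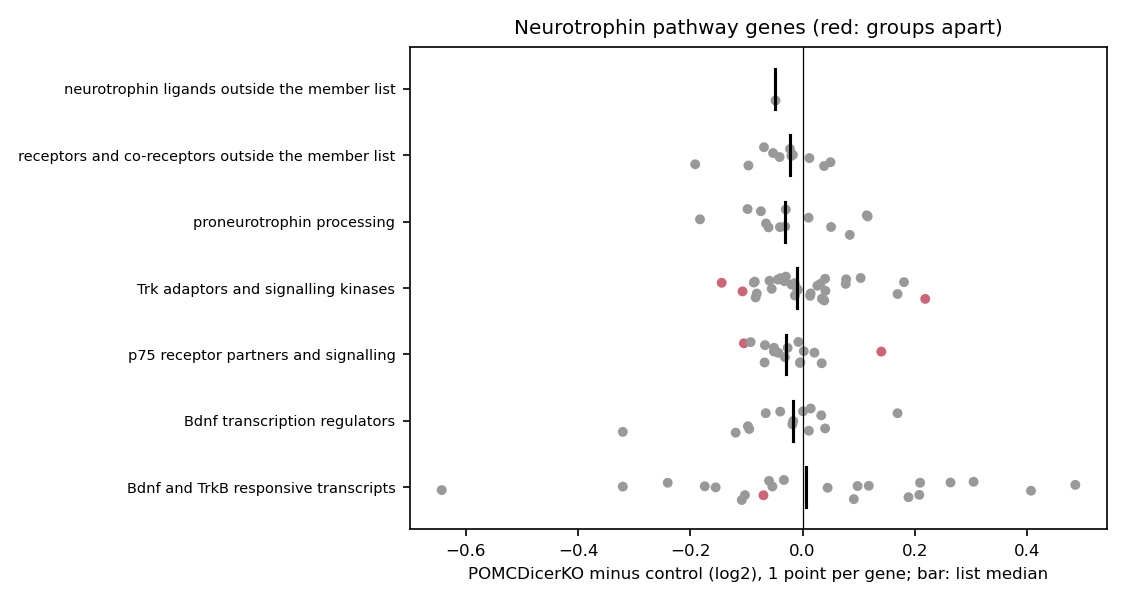
Difference between POMCDicerKO and control (horizontal axis, log2) for the genes of 7 neurotrophin pathway lists, 1 point per gene, with list medians as bars and genes whose groups do not overlap in red. List medians lie between -0.050 and 0.0057, and Gab1 (0.22) is the red point farthest from 0.

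Ntrk2 lies on chromosome 13, and genes beside it were read because the mice were of mixed background. Of the 20 nearest genes with a probe set, 10 on each side, the groups did not overlap at 2 (10%), beside 6.44% of all genes. Their median absolute difference was 0.037, against 0.051 over all genes, and 0 were called. One of the 2 was Isca1 at 0.018. The other was Gas1, 10 genes away, which read 8.66, 8.67 and 8.50 in controls and 8.28, 8.36 and 8.41 in POMCDicerKO, a difference of -0.26 with a standard error of 0.074. Isca1 was named after its value was seen, and Gas1 was also among the genes most like 1435305_at. The 5 genes on either side of Ntrk2 all had overlapping groups, and with 20 genes on each side still 2 of 40 were apart. Around Ntrk3 2 of 20 neighbours were apart, around Bdnf 1, around Ngfr 2, around Sort1 1 and around the place of Ntf3 0. Fam117a, near Ngfr, was at -0.31 with separate groups, the largest such difference among all these neighbours. Levels of neighbours do not give the strain origin of the region, and any part of strain background in the Ntrk2 differences was not tested.

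**Figure D5:**
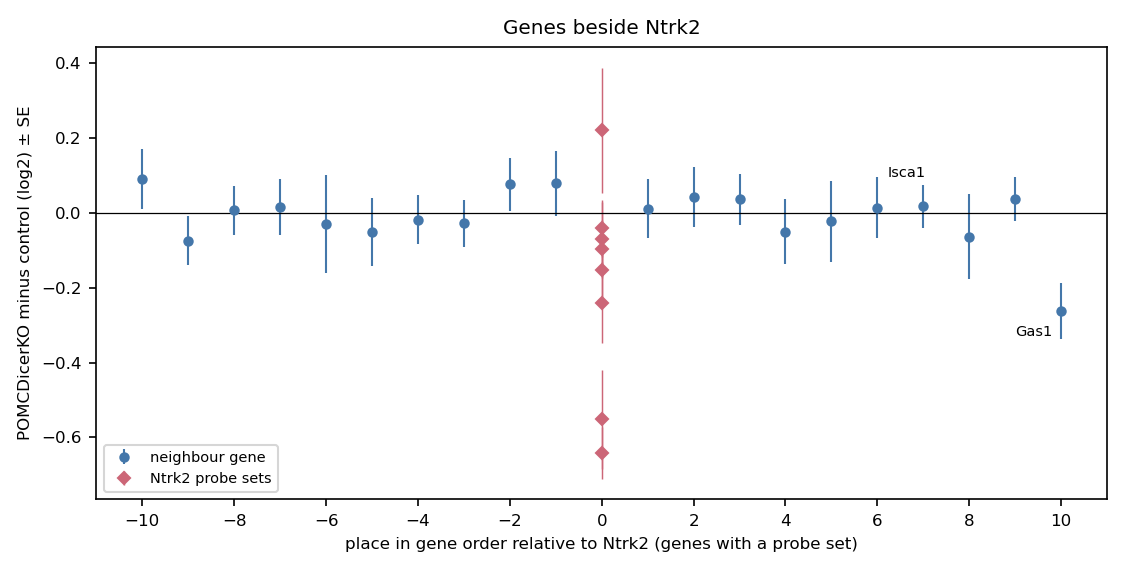
Difference between POMCDicerKO and control with its standard error (vertical axis, log2) for the 10 genes on each side of Ntrk2 in gene order (horizontal axis), with the 8 Ntrk2 probe sets at 0. Neighbours lie within 0.1 of 0 except Gas1 (-0.26), while the Ntrk2 probe sets run from -0.64 to 0.22.

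Markers of the cells that could carry these transcripts were read on the same arrays as the mean log2 level of each list. Astrocytes are rich in truncated TrkB, and the 13 astrocyte genes averaged 10.97 to 11.03 in controls and 10.92 to 11.02 in POMCDicerKO, with overlap. The 12 neuronal genes averaged 11.38 to 11.52 and 11.44 to 11.60. The 11 myelin genes of mature oligodendrocytes were all higher in POMCDicerKO, averaging 10.09 to 10.34 in controls and 10.34 to 10.998 in POMCDicerKO, so that the ranges nearly touched. POMCDicerKO array 1 was the highest. That array was also the lowest for Ntrk2 at 1435305_at, 1446712_at, 1420838_at and 1435196_at, but not at 1458622_at, 1437560_at, 1420837_at or 1444121_at. The same array was the highest for the neuronal, oligodendrocyte precursor and microglia lists too. For the POMC neuron list and the tanycyte and ependymal list it was the lowest. The 6 POMC neuron genes were all lower on average, with overlapping ranges of 8.36 to 8.74 and 8.11 to 8.46. All 11 meningeal genes were lower, at 6.81 to 8.16 and 6.41 to 7.07, and controls 1 and 2 carried the high values. With control 3 as the only control, the Ntrk2 difference was -0.58 at 1435305_at and -0.61 at 1446712_at. Any relation of these differences to the meningeal genes was not tested.

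Other lists overlapped between the groups. Tanycyte and ependymal genes (9) averaged 8.07 to 8.41 in controls and 7.80 to 8.35 in POMCDicerKO, oligodendrocyte precursor genes (9) 8.81 to 8.90 and 8.79 to 9.03, and microglia genes (12) 8.20 to 8.40 and 8.37 to 8.42. Endothelial and pericyte genes (13) averaged 7.49 to 7.66 and 7.52 to 7.68, and genes of peripheral glia (4), which carry much p75, 5.95 to 5.98 and 5.92 to 6.06. The part of these cell types in the Ntrk2 differences was not tested.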

How the data were processed

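Levels were measured on 6 arrays, 3 control and 3 POMCDicerKO, grouped and numbered by sample title. The deposited values were log2 expression per probe set, made by the authors with RMA and the affy package, per the submitters' processing notes, whose versions are not stated there. RMA subtracts background, equalises array distributions by quantiles and summarises the probes of a set, so a change shared by most transcripts would have been removed. Array medians were 6.02 to 6.05. The number of arrays limits the precision.

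The 64 AFFX probe sets were left out and 45037 were tested. The annotation gave 1 symbol to 34945, several to 932 and none to 9160. Current symbols and gene order came from the RefSeq table, matched on Entrez identifiers (34741 matched). It is of assembly GRCm38.p6, the files name no build, and only the promoter windows carry coordinates.

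The groups were compared with limma 3.58.1 in R 4.3.3 (lmFit and eBayes, Benjamini-Hochberg over all tested probe sets, threshold 0.05). Differences are POMCDicerKO minus control, with limma's standard errors and 95% intervals. The script was tested on simulated data. The members and lists were chosen with earlier results of these data known. From each pathway list, up to 3 genes with the smallest p among those with a mean of at least 6 were named. From neighbours, those with separate groups and a difference of at least 0.3 were named, and the 5 genes most like each of 2 Ntrk2 probe sets, the brightest and the one with the smallest p. No batch is given in the labels, and none was tested. The number of unused sample columns was 0.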

Additional observations from a re-analysis of the deposited data

How the results depend on the processing

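The 24 differences were recomputed under 10 alternatives, namely centring, a further quantile normalisation, array weights, each array left out in turn, and controls 1 and 2 left out together. Of the 24, 13 kept their sign in all 10 and 11 did not, and for Ntrk2 5 of 8 kept it. In 7 of the 24 the difference moved by more than the residual SD, each time with control 3 as the only control. No marker list moved by more than its own SD with single arrays left out or with all probe sets of a gene averaged. Ntrk2 1435305_at ran from -0.68 to -0.60 with single arrays left out and was -0.58 with control 3 as the only control. Limma then assumes that the lone control varies like the POMCDicerKO arrays. Over all probe sets the count past the threshold was 1 with a trended and robust prior (Rps9), 1 with control 3 as the only control (a probe set without a name here), and 0 to 2 with single arrays left out: 1 without control 1 (Grik1) and 2 without control 3 (Ogn and Slc6a20a). It stayed at 0 with centring, quantiles, the filter at a mean of 6, no moderation, array weights, the block and 1 probe set per gene. For the pathway probe sets it was 0 under every alternative run. Deviations of same-numbered samples from their group means correlated at 0.13, 0.079 and 0.12, and every sample correlated best with its own number. This is a weak hint from the data and not from the design. Few orders are possible with 3 samples per group, so such a match arises readily. With the replicate block 0 probe sets were past the threshold. In this balanced design the block cannot move a difference of means, so the -0.64 of Ntrk2 1435305_at under it says nothing about stability. Low signal limits Ngfr, Ntf5 and the 10 member probe sets with a mean under 6.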
